A study of Homo sapiens with 6 samples.

Results

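The genes described here are long noncoding RNA genes that carry the suffix -AS1, the naming convention for an RNA transcribed from the strand opposite a neighbouring gene, together with the partner gene that each is named after. Members were all genes of the deposited count table with a name ending in -AS1 and raw counts summing to at least 100 over the 6 libraries, and 320 of the 58735 genes met this rule. The table held 1114 genes with such names, of which 373 had no count in any library. The rule used only this sum, not the difference between the groups. Count sums of members ran from 100 to 157118, with a median of 379.5. A single gene named as the part before -AS1 was found for 317 members (316 distinct partners), and each of these lay on the other strand of the same chromosome. RPARP-AS1 and HOXB-AS1 had no such gene, TMSB15B-AS1 had several, and 2 genes shared the name DNAJC9-AS1.

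Antisense transcription is widespread in human cells. An antisense RNA can arise from a shared, bidirectional promoter, from within the partner, or from beyond its end, and single examples are known that raise or lower their partner by acting on its chromatin, by transcriptional interference or by base pairing with its transcript, whereas many others have no described effect. Long noncoding RNAs are on the whole spliced less efficiently than mRNAs and are often retained in the nucleus. SON, the protein depleted here, is a core component of nuclear speckles and a splicing cofactor needed for introns with weak splice sites.

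The cells were RPE-1, an immortalized human retinal pigment epithelial line, carrying centrin 2 (CETN2) tagged with GFP, which marks centrioles, and the centriole duplication kinase PLK4 behind a doxycycline-inducible promoter read by rtTA. The siSON group (3 libraries) received an siRNA targeting SON and the siControl group (3 libraries) a scramble siRNA, both delivered with Lipofectamine RNAiMAX. PLK4 was induced with 1 µg/mL doxycycline in both groups, so every value below refers to PLK4-induced cells. The study examined how mRNA abundance and splicing changed when SON was lost.

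Promoter windows with the annotated starts of both genes were sought only for pairs picked by the naming rule given below, with starts within 300 bases. Such windows were found for 3 of these pairs and are shown because the pairs behaved differently. At COX10 the partner rose and the antisense RNA was not called, and at OSMR both rose. At TAF1A-AS1 the antisense RNA fell and the partner rose. Each window is 300 bases of RefSeq sequence (GRCh38.p14, plus strand, 5′ to 3′), and capitals mark matches to 4 short motifs on either strand. The GC box was searched for as the letters GGGCGG. The box named after its own letters was searched for as CCAAT, and the element found near some starts as the letters TATAAA. The core that ETS factors bind was searched for as the letters CCGGAAG, and the motifs do not contain one another.
COX10 window, chr17:14069254-14069553: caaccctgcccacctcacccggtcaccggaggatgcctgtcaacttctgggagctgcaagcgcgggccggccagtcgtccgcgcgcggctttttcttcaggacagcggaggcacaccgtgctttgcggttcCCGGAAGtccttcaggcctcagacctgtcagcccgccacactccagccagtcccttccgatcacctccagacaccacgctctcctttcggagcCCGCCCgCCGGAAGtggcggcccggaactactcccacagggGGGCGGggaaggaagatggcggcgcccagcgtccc
OSMR window, chr5:38845762-38846061: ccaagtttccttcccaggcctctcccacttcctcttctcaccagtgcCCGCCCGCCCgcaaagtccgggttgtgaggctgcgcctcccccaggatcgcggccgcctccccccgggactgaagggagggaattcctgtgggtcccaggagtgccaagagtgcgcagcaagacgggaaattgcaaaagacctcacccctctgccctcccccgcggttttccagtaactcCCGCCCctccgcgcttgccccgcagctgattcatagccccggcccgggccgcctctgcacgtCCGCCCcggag
TAF1A-AS1 window, chr1:222589709-222590008: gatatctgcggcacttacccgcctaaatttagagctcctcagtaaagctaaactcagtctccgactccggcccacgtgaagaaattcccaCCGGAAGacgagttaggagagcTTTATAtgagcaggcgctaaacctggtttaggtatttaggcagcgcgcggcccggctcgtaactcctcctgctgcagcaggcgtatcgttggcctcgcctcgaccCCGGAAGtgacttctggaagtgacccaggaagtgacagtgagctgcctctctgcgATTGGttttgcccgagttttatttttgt
In the COX10 window COX10-AS1 starts at base 242 and runs to the left, and COX10 starts at base 243 and runs to the right. In the OSMR window the starts of OSMR-AS1 and OSMR lie at bases 68 and 97, again running apart. In the TAF1A-AS1 window TAF1A-AS1 starts at base 117 and runs right, TAF1A starts at base 225 and runs left, and the transcripts overlap between these bases. A second RefSeq window of TAF1A-AS1, chr1:222589670-222589969, also holds both starts and is not shown. It has the same ETS and TATAAA matches but not the CCAAT match. RefSeq windows were found for 219 member and 258 partner symbols. Their median number of CG dinucleotides was 23 in both sets, against 14 over all 35116 windows. A GC box was present in 56.2% of member windows, 59.2% of partner windows and 45.0% of all windows. An ETS match was present in 13.6%, 10.5% and 10.3%, the CCAAT letters in 30.6%, 35.9% and 34.6%, and the TATAAA letters in 7.92%, 9.79% and 11.5%. A match says only that these letters occur in the window.

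SON itself fell from 297 ± 14.5 CPM (counts scaled to a library of fixed size with TMM factors) in siControl to 67.6 ± 2.49 in siSON (SD, n = 3 each), so 22.8% was left (log2 fold change -2.14, SE 0.06, edgeR adjusted p = 6.78e-10). The 6 libraries held 54572365 to 69764836 counts, at which 3 counts, the limit that a count of 0 allows, equal 0.0402 to 0.0590 CPM. Replicate 1 stood apart in both groups: replicates 2 and 3 of a group differed by 7.16 and 7.18 on a chi-square scale (per degree of freedom, over genes), and pairs with replicate 1 by 18.3 to 26.1. Of 10 retinal pigment epithelium markers, 5 reached 1 CPM in siControl (BEST1, MITF, OTX2, PMEL and RDH5), whereas RPE65, RLBP1, TYR, TYRP1 and TTR were at or near 0. The summed level of these markers was 54.4 to 57.2 CPM in siControl and 74.4 to 83.7 in siSON, but the list moved both ways: BEST1, MITF and OTX2 rose by 0.62, 0.52 and 0.82 on the log2 scale, and PMEL and RDH5 fell by 3.36 and 3.57. Among keratins KRT8 and KRT18 rose (0.34 and 1.48) and KRT7 fell (-0.76), while CDH1 and KRT19 were near 0. Of the 5 mesenchymal genes CDH2 rose (0.66), COL1A1 and COL1A2 fell (-1.85 and -0.71), and VIM and FN1 were not called (-0.14 and 0.03). The neuron marker SYT1 fell from 92.0 to 30.4 CPM and the blood marker PTPRC from 1.44 to 0.292, while RBFOX3 and CD3E were at 0. The part of these marker shifts in the results below was not tested.

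Most antisense RNAs that changed were lower after SON depletion. All 320 members were tested, and edgeR called 206 of them changed at an adjusted p under 0.05 (64.4%), beside 71.7% of all 16591 genes tested. Of these, 175 members were lower in siSON (54.7%), beside 36.5% of all genes, and 31 were higher (9.69%), beside 35.2% of all genes. The members include 104 whose siControl counts reached the sum of 100 and whose siSON counts did not, against 6 the other way. The split of calls without these members was not computed. The median log2 fold change was -0.77 over the members and -0.03 over all genes tested. A fall of at least 2-fold was called in 129 members, beside 20.5% of all genes tested, and a rise of at least 2-fold in 15, beside 8.72%. The 3 siSON libraries lay entirely below the 3 siControl libraries for 183 members, beside 38.2% of all genes tested.

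The split of calls depended on the scaling, though falls outnumbered rises under each. In the fit reported, 31 of 206 calls were higher. Library sizes alone called 19 higher and 199 lower (8.72% higher), and cyclic loess scaling called 57 higher and 134 lower (29.8% higher). The members' median was -0.97 with library sizes alone, where the median of all genes was -0.22, and -0.32 after cyclic loess, where it was 0.04. Without replicate 1 of either group, an alternative chosen after seeing the data, 24 of the 31 higher and 161 of the 175 lower calls were also made.

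**Figure D1:**
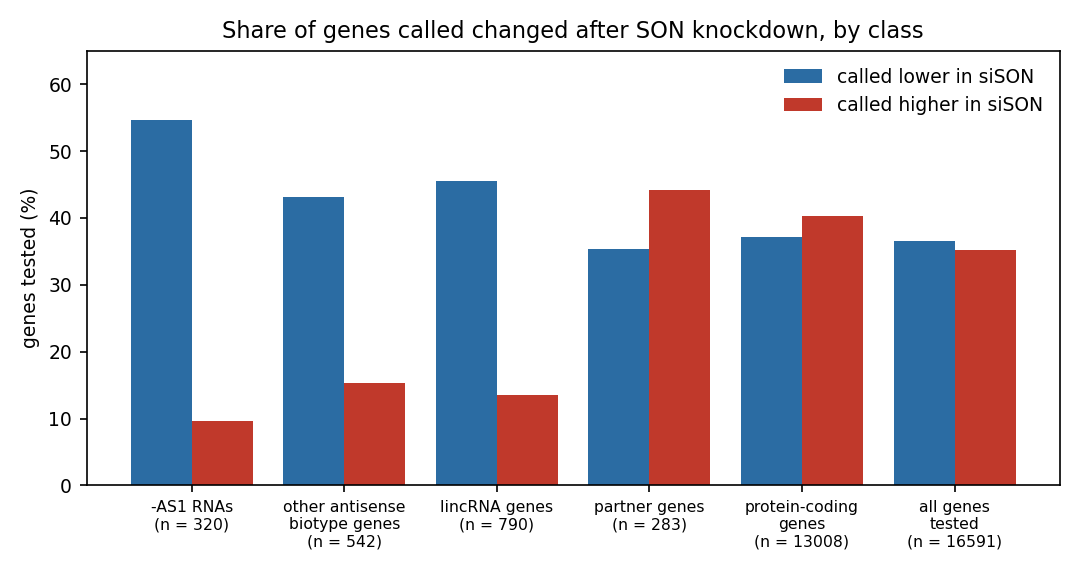
Share of the genes tested (%) that were called lower (blue) or higher (red) in siSON, for the -AS1 RNAs, other genes of biotype antisense with at least 100 counts, lincRNA genes, partner genes, protein-coding genes and all genes tested, with the number tested under each pair of bars. Lower calls exceed higher calls in the 3 noncoding classes (54.7% against 9.69% in the -AS1 RNAs), and the partner genes show the opposite order (35.3% lower, 44.2% higher).

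Other noncoding classes also fell more often than they rose. Among 542 other genes of biotype antisense with at least 100 counts, 234 were lower and 83 higher (median -0.53), and among 790 lincRNA genes, 30 of them members, 360 were lower and 107 higher (median -0.67). Among 13008 protein-coding genes, 4830 were lower and 5242 higher (median 0.03). The members are not independent of the all-gene figures, of which they form a small part, and no test of the difference between classes was made. As a share of all raw counts, members took 0.184% to 0.188% of each siControl library and 0.123% to 0.125% of each siSON library. With TMM scaling, which these shares leave out, members summed to 1708 to 1777 CPM in siControl and 1315 to 1353 in siSON. A single member, LRRC75A-AS1, supplied 27.3% of all member counts.

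Whether reads were counted by strand is not given in the sources used here, and without strand the reads of a gene and of its antisense partner cannot be told apart where their exons overlap. Of the 317 pairs, 237 shared exonic bases and 80 shared none. The shared stretch had a median of 10.8% of the antisense RNA, and 18 members shared at least 50%. Of members that shared exonic bases 129 of 237 were lower and 25 higher, and of members that shared none 44 of 80 were lower and 6 higher, with medians of -0.77 and -0.75. Both sets lay near all members (54.7% lower and 9.69% higher), beside 36.5% and 35.2% of all genes tested. The table itself gave 2 measurements that bear on the counting. Of 516 genes whose exons, at least 200 bases long, lie wholly under exons of the other strand, 333 had at least 1 count. Of 214 such genes under the exons of a gene with at least 10000 counts, 57 had fewer than 10 counts.

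The 6 largest falls were in RNAs of at most 2.19 CPM, and in siSON they rested on a few reads per library. The largest falls and rises were picked among members called changed whose groups did not overlap, so their separation was set by the choice. MELTF-AS1 (ENSG00000228109, chromosome 3, 196999460 to 197004744, plus strand, 4 exons, inside MELTF, the gene of the iron-binding surface protein melanotransferrin) had 2.19, 1.43 and 1.71 CPM in siControl and 0.0689, 0.136 and 0.0393 in siSON. The groups did not overlap, and the siSON values rest on 4, 7 and 2 reads (log2 fold change -4.42, SE 0.38, adjusted p = 1.18e-06). ST7-AS1 (ENSG00000227199, chromosome 7, 116952446 to 116954334, minus strand, 1 exon) had 1.66, 1.34 and 1.5 CPM in siControl and 0.0862, 0.0776 and 0.0984 in siSON. All siSON libraries lay far below the lowest siControl library (log2 fold change -4.07, SE 0.31, adjusted p = 4.4e-07). ATP2A1-AS1 (ENSG00000260442, chromosome 16, 28878957 to 28879920, minus strand, 2 exons) lies inside ATP2A1, the gene of the calcium pump of fast muscle. It had 1.43, 1.57 and 1.27 CPM in siControl and 0.0862, 0.0776 and 0.0984 in siSON, groups that were again far apart (log2 fold change -4.0, SE 0.32, adjusted p = 5.69e-07).

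TAF1A-AS1 (ENSG00000225265, chromosome 1, 222589825 to 222593032, plus strand, 3 exons), whose start is in the third window shown above, had 0.330, 0.566 and 0.495 CPM in siControl and 0.0345, 0.0194 and 0.0393 in siSON. Its siSON libraries held 2, 1 and 2 reads, below the 3-count limit in each, so the size of its fall is uncertain (log2 fold change -3.81, SE 0.54, adjusted p = 6.33e-05). FUT8-AS1 (ENSG00000276116, chromosome 14, 65411170 to 65412690, minus strand, 1 exon) is opposite FUT8, which encodes the enzyme that adds core fucose to N-glycans. It fell from 0.989, 1.21 and 0.736 CPM to 0.0345, 0.136 and 0.0393, with 54.2% of its exonic bases shared with FUT8 (log2 fold change -3.79, SE 0.48, adjusted p = 2.64e-05). SRRM2-AS1 (ENSG00000205913, chromosome 16, 2737076 to 2752600, minus strand, 6 exons) starts 271 bases downstream of the start of SRRM2, which encodes the other main scaffold protein of nuclear speckles beside SON. It had 0.860, 0.849 and 0.723 CPM in siControl and 0.0172, 0.0776 and 0.0984 in siSON (log2 fold change -3.65, SE 0.46, adjusted p = 2.78e-05). Its partner moved the other way: SRRM2 had 666, 635 and 560 CPM in siControl and 1117, 1030 and 1096 in siSON (log2 fold change 0.80, SE 0.07, adjusted p = 7.43e-07).

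**Figure D2:**
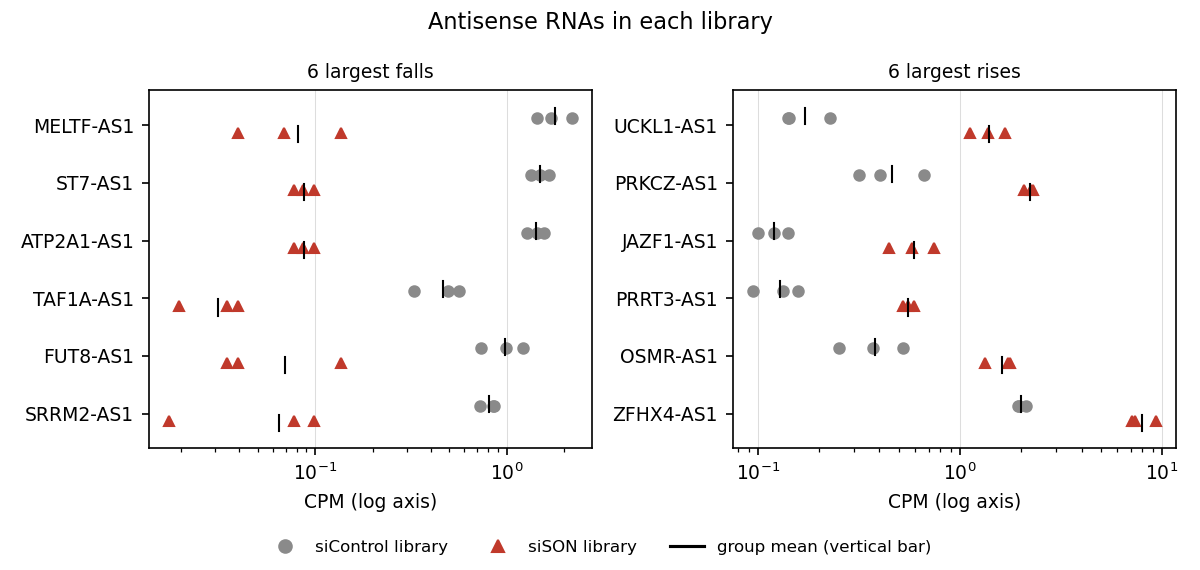
CPM (log axis) of the 6 antisense RNAs with the largest falls (left) and the 6 with the largest rises (right) in each of the 3 siControl (grey circles) and 3 siSON (red triangles) libraries; vertical bars are group means. The groups are separate for all 12, as the choice of these RNAs required. The siSON values of the falling RNAs lie between 0.0172 and 0.136 CPM.

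Among the 31 members that rose, the largest rises were likewise in RNAs of low abundance in control cells. UCKL1-AS1 (ENSG00000280213, chromosome 20, 63953384 to 63956985, plus strand, 1 exon) had 0.143, 0.142 and 0.228 CPM in siControl and 1.38, 1.12 and 1.67 in siSON (log2 fold change 3.0, SE 0.32, adjusted p = 6.47e-06). Its lowest siSON library was several times its highest siControl library. PRKCZ-AS1 (ENSG00000182873, chromosome 1, 2181794 to 2184389, minus strand, 3 exons) lies inside the gene of atypical protein kinase C zeta and rose from 0.315, 0.661 and 0.402 CPM to 2.26, 2.31 and 2.09 (log2 fold change 2.28, SE 0.27, adjusted p = 1.47e-05). PRKCZ itself was at 0.0993 ± 0.0890 CPM in siControl and 0.123 ± 0.0915 in siSON and was not called. JAZF1-AS1 (ENSG00000234336, chromosome 7, 28180322 to 28243917, plus strand) rose from 0.10, 0.142 and 0.120 CPM to 0.448, 0.582 and 0.748 (log2 fold change 2.27, SE 0.39, adjusted p = 0.000299). JAZF1, a zinc finger gene, rose too, from 18.2 ± 2.58 to 30.7 ± 2.69 CPM.

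PRRT3-AS1 (ENSG00000230082, chromosome 3, 9947404 to 9954787, plus strand) had 0.158, 0.0944 and 0.134 CPM in siControl and 0.551, 0.524 and 0.590 in siSON (log2 fold change 2.08, SE 0.37, adjusted p = 0.000385). OSMR-AS1 (ENSG00000249740, chromosome 5, 38710367 to 38845829, minus strand, 6 exons) had 0.373, 0.252 and 0.522 CPM in siControl and 1.72, 1.34 and 1.77 in siSON (log2 fold change 2.06, SE 0.29, adjusted p = 6.49e-05). It starts 29 bases from OSMR, shares no exonic base with it, and the groups did not overlap for either gene. OSMR, a receptor subunit for oncostatin M, had 96.0, 95.1 and 92.9 CPM in siControl and 189, 178 and 199 in siSON (log2 fold change 0.99, SE 0.06, adjusted p = 4.51e-08). ZFHX4-AS1 (ENSG00000253661) was the most abundant of the 6, with 2.12, 1.97 and 1.93 CPM in siControl and 9.30, 7.37 and 7.08 in siSON (log2 fold change 1.98, SE 0.14, adjusted p = 3.01e-07). Its partner ZFHX4, a large homeodomain and zinc finger factor, was at 36.6 ± 4.08 and 32.7 ± 1.74 CPM and was not called (adjusted p = 0.115). It was called lower with library sizes alone (adjusted p = 0.00332), after cyclic loess (0.0398), with a mean count of at least 50 (0.0414) and without siControl replicate 3 (0.0192), in a range of 0.00332 to 0.328.

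The 6 most abundant antisense RNAs had small differences. LRRC75A-AS1 (ENSG00000175061, chromosome 17, 16438822 to 16478678, plus strand), a host of small nucleolar RNAs, had 447, 422 and 453 CPM in siControl and 413, 401 and 403 in siSON. These groups were separate but close (log2 fold change -0.12, SE 0.05, adjusted p = 0.0399), and the call was lost with DESeq2 (adjusted p = 0.0686), with RLE factors (adjusted p = 0.0505), with no count filter (adjusted p = 0.087) and when siControl replicate 3, siSON replicate 2 or siSON replicate 3 was left out (adjusted p = 0.0995, 0.155 and 0.139). Over its 15 alternatives the adjusted p ran from 1.88e-06 to 0.155. FGD5-AS1 (ENSG00000225733) fell from 149.5, 153 and 157 CPM to 108, 113 and 113 (log2 fold change -0.46, SE 0.05, adjusted p = 8.21e-06). Its partner FGD5 was nearly silent, with 0 counts in every siSON library. OIP5-AS1 (ENSG00000247556), the conserved RNA also called cyrano that binds the microRNA miR-7, fell from 59.7, 64.0 and 65.6 CPM to 43.2, 49.2 and 52.5 (log2 fold change -0.39, SE 0.08, adjusted p = 0.000897).

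PAX8-AS1 was at 59.0 ± 7.55 CPM in siControl and 65.4 ± 7.27 in siSON, with overlapping groups (log2 fold change 0.15, SE 0.10, adjusted p = 0.21), and it was called with replicate number as a block (adjusted p = 0.0159, in a range of 0.0159 to 0.862 over its alternatives). NUTM2A-AS1 was at 33.1 ± 0.999 and 30.1 ± 1.84 CPM (log2 fold change -0.14, SE 0.07, adjusted p = 0.107), and it was called lower with library sizes alone (adjusted p = 0.00179), after cyclic loess (0.0343) and with a mean count of at least 50 (0.0256), in a range of 0.00179 to 0.36. AGAP2-AS1 had 32.7, 30.3 and 30.5 CPM in siControl and 40.8, 36.0 and 37.7 in siSON (log2 fold change 0.29, SE 0.07, adjusted p = 0.00345). That rise was not called with library sizes alone (adjusted p = 0.241, in a range of 0.000572 to 0.241 over its alternatives). All of these RNAs stood far above most members per length: the median member level was 0.578 CPM per kilobase of exon in siControl, and LRRC75A-AS1 reached 117, FGD5-AS1 29.9 and AGAP2-AS1 20.8.

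Antisense RNAs with a described role in cells formed a list of 26 members, of which 15 fell, 2 rose and 9 were not called, with a median log2 fold change of -0.55. These shares, 57.7% lower and 7.69% higher, lie near those of all members (54.7% and 9.69%), beside 36.5% and 35.2% of all genes tested. TMPO-AS1 (ENSG00000257167, chromosome 12, 98512973 to 98516422, minus strand), opposite the gene of the nuclear lamina protein thymopoietin, had 28.0, 34.6 and 33.6 CPM in siControl and 1.72, 3.35 and 3.27 in siSON. It retained 8.68% of its control level (log2 fold change -3.54, SE 0.21, adjusted p = 2.47e-07). TMPO fell less, from 247 ± 14.1 to 160 ± 30.1 CPM (log2 fold change -0.62, adjusted p = 0.00134). TBX2-AS1 and PAXIP1-AS1 fell by 1.73 and 1.62 on the log2 scale, and their partners encode a T-box transcription factor and a chromatin adaptor of the DNA damage response. GABPB1-AS1, divergent from a gene for a subunit of the ETS factor GABP, fell from 14.2 ± 2.19 to 5.65 ± 0.742 CPM (log2 fold change -1.33, adjusted p = 5.12e-06).

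Other members of this list that fell included ST7-AS1 and ARRDC1-AS1, described elsewhere in the text, and FOXD2-AS1 (-1.13), GATA2-AS1 (-1.09), TTN-AS1 (-0.95), MAPKAPK5-AS1 (-0.84), PSMA3-AS1 (-0.60), THUMPD3-AS1 (-0.49), DLGAP1-AS1 (-0.48) and OIP5-AS1 (-0.39), each given as a log2 fold change. The fall of FOXD2-AS1 was not called after cyclic loess (adjusted p = 0.0565, in a range of 0.0013 to 0.0565), and that of DLGAP1-AS1 was not called after cyclic loess (adjusted p = 0.541) or without siControl replicate 1 (adjusted p = 0.076) or siSON replicate 2 (adjusted p = 0.0763) or replicate 1 of both groups (adjusted p = 0.0807), in a range of 0.00328 to 0.541. NR2F1-AS1, divergent from the gene of the nuclear receptor COUP-TFI, rose from 11.3, 11.6 and 11.6 CPM to 17.0, 17.8 and 16.8 (log2 fold change 0.58, SE 0.08, adjusted p = 4.26e-05), and NR2F1 rose by 0.68 on the same scale. ZBED5-AS1 rose from 2.98 ± 0.312 to 4.26 ± 0.375 CPM (adjusted p = 0.00699), a call lost with library sizes alone (adjusted p = 0.0716, in a range of 0.000287 to 0.0716). Members not called included HIF1A-AS1 (0.276 ± 0.0857 and 0.384 ± 0.0957 CPM), ZEB1-AS1 (1.17 ± 0.324 and 0.95 ± 0.0481 CPM) and GATA6-AS1 (0.265 ± 0.0695 and 0.319 ± 0.112 CPM). In each of these 3 the siControl and siSON libraries overlapped. HIF1A-AS1 was called higher after cyclic loess (log2 fold change 1.02, adjusted p = 0.0219, in a range of 0.0219 to 0.634).

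The partner genes were called in both directions. Of 283 distinct partners tested, 225 were called, beside 71.7% of all genes, and 125 were higher and 100 lower (median log2 fold change 0.05), beside 35.2% and 36.5% of all genes. A fall of at least 2-fold was called in 35 of the 283 partners, beside 20.5% of all genes, and a rise of at least 2-fold in 13, beside 8.72%, so both were less frequent among partners than among all genes, a difference that was not tested. Both genes were tested in 284 pairs, since 33 partners were too low to test, 5 of them with no count in any library. In 75 of the 284 pairs both genes were called in the same direction, 63 with both lower and 12 with both higher. In 72 pairs they were called in opposite directions, 67 of which had the antisense RNA lower and the partner higher, and 5 the reverse. The antisense RNA alone was called in 34 pairs (24 lower, 10 higher), the partner alone in 79 (46 higher, 33 lower), and neither in 24. Most called members were lower and partners were called both ways, so unrelated changes would also give pairs of both kinds. The joint counts were not tested against what the separate shares of calls would give.

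Across the 284 pairs the changes of the 2 genes were weakly related, with a Pearson r of 0.10 and a Spearman rho of 0.11, and 54.9% of pairs shared a sign. These coefficients describe genes measured in the same 6 libraries, and pairs are not independent replicates. The r was 0.21 over the 116 pairs whose starts lie within 1000 bases and 0.05 over the 168 pairs farther apart. It was 0.14 over the 72 pairs that share no exonic base and 0.09 over the 212 that share some. Over all 1855 pairs of tested opposite-strand genes with starts within 1000 bases, r was 0.10 and 52.4% shared a sign. Of these, the 421 pairs of 1 protein-coding gene and 1 gene of biotype antisense had an r of 0.000439 and a rho of -0.02, with 52.3% sharing a sign, and the 1053 pairs of protein-coding genes had an r of 0.16.

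**Figure D3:**
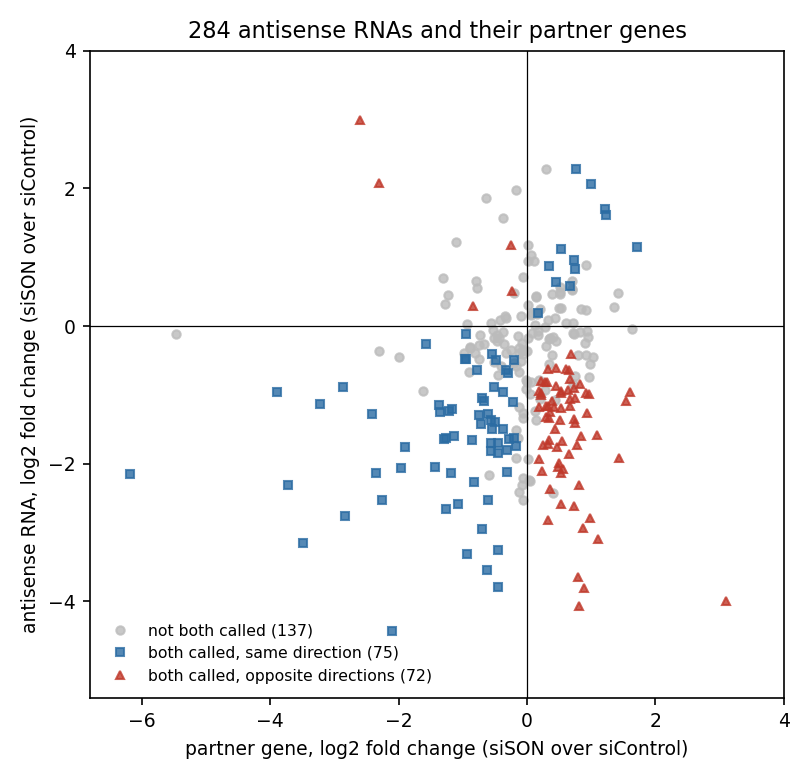
Log2 fold change (siSON over siControl) of each antisense RNA (vertical axis) against that of its partner gene (horizontal axis) for the 284 pairs with both genes tested; squares mark 75 pairs called in the same direction, triangles 72 called in opposite directions and grey circles the other 137. Most points lie below the horizontal line on both sides of the vertical line, and r is 0.10.

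In the 5 pairs with the largest joint change in one direction, both genes fell. ARRDC1-AS1 (ENSG00000203993, chromosome 9, 137615332 to 137618906, minus strand, tail to tail with its partner) had 9.39, 8.56 and 7.88 CPM in siControl and 1.86, 1.67 and 2.30 in siSON (log2 fold change -2.15, SE 0.15, adjusted p = 1.82e-07). ARRDC1 (ENSG00000197070, chromosome 9, 137605654 to 137615360), an arrestin-domain protein that drives vesicle release at the plasma membrane, had 20.5, 21.7 and 19.4 CPM in siControl and 0.258, 0.465 and 0.118 in siSON (log2 fold change -6.18, SE 0.23, adjusted p = 3.3e-09). The pair shares 29 exonic bases, 1.21% of the antisense RNA, and the antisense RNA kept a larger part of its level than the partner: the log2 ratio of antisense RNA to partner moved from -1.26 ± 0.112 to 2.93 ± 1.18 (exact 2-sided permutation p = 0.1, the smallest that 3 against 3 libraries allow).

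C1RL-AS1 (ENSG00000205885, chromosome 12, 7108052 to 7122501, plus strand, 12 exons) fell from 5.83, 5.99 and 5.86 CPM to 1.31, 1.26 and 1.00 (log2 fold change -2.30, SE 0.15, adjusted p = 1.19e-07). C1RL, a complement C1r-like serine protease, fell from 25.3 ± 1.04 to 1.93 ± 0.299 CPM (log2 fold change -3.72, SE 0.12, adjusted p = 1.42e-09). Again the ratio rose, from -2.10 ± 0.0504 to -0.69 ± 0.138 on the log2 scale, with no overlap of the groups (exact 2-sided p = 0.1). EML2-AS1 fell from 1.67 ± 0.111 to 0.290 ± 0.168 CPM and EML2, a microtubule-associated protein, from 10.1 ± 0.512 to 2.11 ± 0.255. In this pair 95.0% of the exonic bases of the antisense RNA are shared with EML2, and the ratios of the groups overlapped (exact 2-sided p = 0.4).

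The remaining pairs of this kind were at low level. CCDC183-AS1 fell from 1.06 ± 0.340 to 0.116 ± 0.0498 CPM and CCDC183 from 0.580 ± 0.0617 to 0.0503 ± 0.0598, with 1 siSON library at 0. SLC25A34-AS1 fell from 0.434 ± 0.0775 to 0.0638 ± 0.0471 CPM, and SLC25A34, a member of the mitochondrial carrier family, from 1.15 ± 0.225 to 0.156 ± 0.128. In neither pair did the ratio separate the groups (exact 2-sided p = 0.6 and 0.9).

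**Figure D4:**
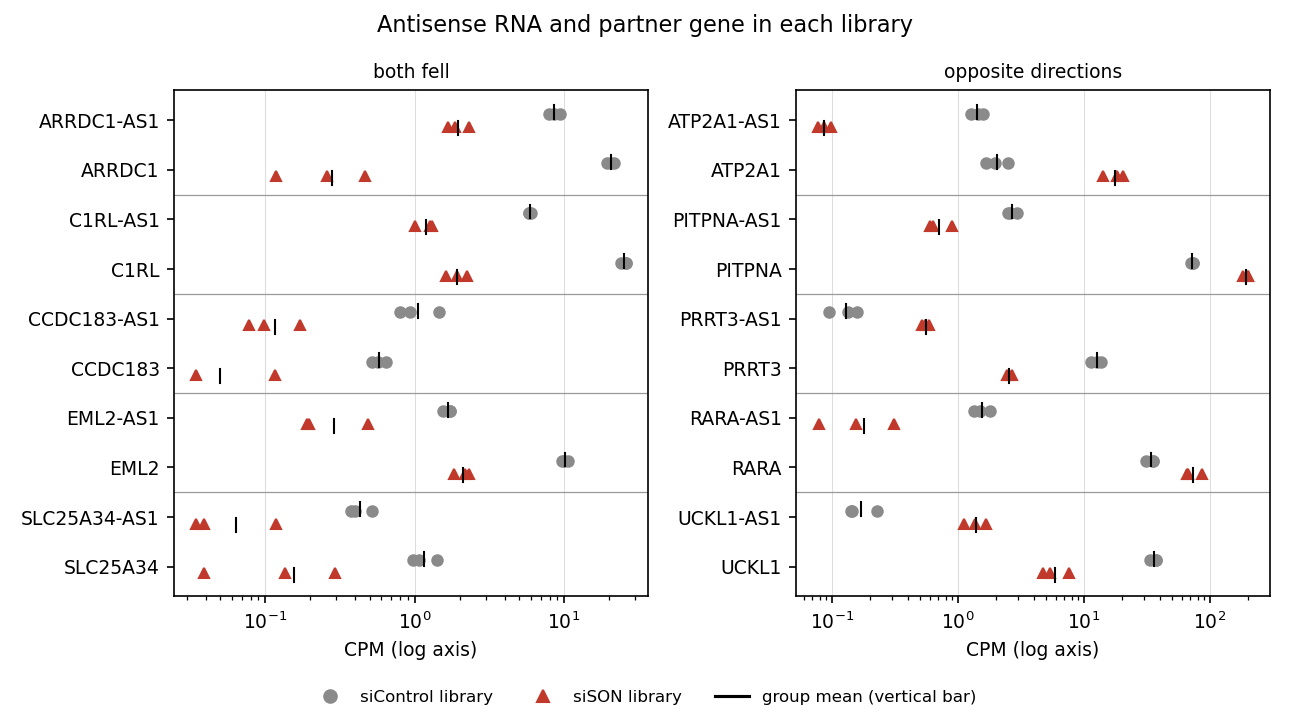
CPM (log axis) of antisense RNA and partner gene in each siControl (grey circles) and siSON (red triangles) library, for 5 pairs in which both fell (left) and 5 that moved in opposite directions (right); vertical bars are group means. The siSON library of CCDC183 at 0 cannot be drawn on this axis. Groups are separate for all 20 genes, and in the right panel the antisense RNA is below its partner in every library but shifts against it.

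Opposite changes were largest at ATP2A1. While ATP2A1-AS1 fell to a few reads, ATP2A1 had 2.49, 1.98 and 1.66 CPM in siControl and 20.4, 18.2 and 14.2 in siSON (log2 fold change 3.11, SE 0.17, adjusted p = 4.98e-08). The log2 ratio of the pair moved from -0.50 ± 0.255 to -7.50 ± 0.401 (exact 2-sided p = 0.1). UCKL1, a uridine-cytidine kinase-like gene, did the reverse of UCKL1-AS1: it had 37.1, 37.2 and 33.7 CPM in siControl and 4.70, 7.64 and 5.43 in siSON (log2 fold change -2.61, SE 0.15, adjusted p = 7.25e-08). PRRT3, a proline-rich transmembrane protein gene, fell from 12.6 ± 1.09 to 2.56 ± 0.107 CPM while PRRT3-AS1 rose (log2 fold change -2.30, SE 0.11, adjusted p = 1.82e-08).

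RARA-AS1 (ENSG00000265666, chromosome 17, 40340867 to 40343136, minus strand) lies inside RARA, the gene of retinoic acid receptor alpha. It had 1.33, 1.51 and 1.81 CPM in siControl and 0.155, 0.310 and 0.0787 in siSON (log2 fold change -3.09, SE 0.37, adjusted p = 1.88e-05). RARA was higher in each siSON library, at 86.3, 66.2 and 67.7 CPM against 35.2, 35.6 and 31.1 (log2 fold change 1.11, SE 0.10, adjusted p = 2.15e-06). PITPNA-AS1 fell from 2.69 ± 0.237 to 0.709 ± 0.163 CPM (log2 fold change -1.91), and PITPNA, a phosphatidylinositol transfer protein gene, rose from 72.4 ± 1.69 to 195 ± 9.47 (log2 fold change 1.43). The pair shares 69.9% of the exonic bases of PITPNA-AS1. All 5 opposite pairs had ratios that did not overlap between the groups (exact 2-sided p = 0.1 each), as did 189 of all 284 pairs tested. Both genes of each of these 5 pairs were separate in opposite directions, so the choice of pairs fixed this outcome and it adds no support.

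Partners could also change strongly beside an antisense RNA that was not called. COX10, the gene of a heme A synthesis enzyme needed for cytochrome c oxidase, had 10.9, 11.1 and 11.6 CPM in siControl and 35.6, 36.4 and 32.5 in siSON (log2 fold change 1.64, SE 0.08, adjusted p = 1.36e-08). COX10-AS1, which starts 1 base away in the first window shown above and shares no exonic base with COX10, had 3.27, 2.88 and 2.68 CPM in siControl and 3.36, 2.62 and 2.56 in siSON (log2 fold change -0.04, SE 0.16, adjusted p = 0.817). Its groups overlapped fully, and the log2 ratio of the pair moved from -1.93 ± 0.192 to -3.62 ± 0.198 without overlap (exact 2-sided p = 0.1). HLA-F, a nonclassical MHC class I gene, fell from 12.6 ± 0.172 to 2.55 ± 0.550 CPM (log2 fold change -2.31) beside HLA-F-AS1 at 1.95 ± 0.164 and 1.52 ± 0.0982 (adjusted p = 0.0843, called with library sizes alone at 0.0139 and with a mean count of at least 50 at 0.0454, in a range of 0.0139 to 0.909). SCOC, a short coiled-coil Golgi protein gene, fell from 48.9 ± 2.41 to 12.3 ± 1.14 CPM (log2 fold change -1.99) beside SCOC-AS1 at 0.516 ± 0.102 and 0.376 ± 0.0928 (adjusted p = 0.251). SNAI3, a Snail-family gene, had 75 counts over the siControl libraries and 1 over the siSON libraries, which is 1.73% of the control level (exact 95% interval 0.0432% to 9.93%, for counting error only), and SNAI3-AS1 was at 2.06 ± 0.306 and 1.90 ± 0.639 CPM (adjusted p = 0.691).

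Set against their partners, the antisense RNAs were minor transcripts in both groups. The median level of members was 0.578 CPM per kilobase of exon in siControl and 0.296 in siSON, and that of partners 6.30 and 6.34. In 37 of the pairs the antisense RNA exceeded its partner per kilobase in siControl, and in 33 in siSON. The log2 ratio of antisense RNA to partner, in which the scaling of a library cancels, was lower in siSON in 197 of 284 pairs, with a median change of -0.65.

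Members were also grouped into 7 lists by their partner. Lower calls made up 50% to 71.4% of each list, around the 54.7% of all members, so no list is shown to differ from the members at large. Over all genes tested 36.5% were lower and 35.2% higher. Of 12 members whose partner has a zinc finger gene name (beginning ZNF, ZBTB, ZSCAN, ZKSCAN or ZFP), 8 fell and 2 rose (median -1.20). Those that fell include ZNF213-AS1 (-1.93), ZNF337-AS1 (-1.62) and ZNF561-AS1 (-1.23), and the highest log2 fold change in the list was 1.58. Zinc finger genes with other names are outside this list, and their antisense RNAs described above were called both ways or not called. Those of JAZF1, ZFHX4 and ZBED5 rose, that of GATA2 fell, and those of GATA6, ZEB1 and SNAI3 were not called. Beside transcription factors, most of them developmental, 8 of 16 fell and 1 rose (median -0.80), while 9 of the 14 partner genes tested rose and 4 fell. TBX2 rose by 0.78 beside the fall of TBX2-AS1. The pairs in which the antisense RNA was lower and the factor higher also included FOXN3, GATA2 and NR2F2, but the rises of these factors were not called with library sizes alone (adjusted p = 0.515, 0.196 and 0.761). GATA2 was also not called without siControl replicate 1 (adjusted p = 0.0737) or siSON replicate 2 (adjusted p = 0.0569), and NR2F2 was at -0.12 after cyclic loess (adjusted p = 0.151) and not called in 5 of its 15 alternatives. Beside chromatin regulators 5 of 7 fell and none rose (median -1.05), including KDM4A-AS1 (-1.93), whose partner encodes a histone demethylase. KANSL1-AS1 (-1.05), beside the gene of a subunit of a histone acetyltransferase complex, fell too, a call lost after cyclic loess (adjusted p = 0.0685, in a range of 0.000369 to 0.0685).

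A list of cell cycle, DNA repair and proteasome genes had 8 of 12 members lower and 2 higher (median -0.74). DDX11-AS1 (-2.66) and SMC5-AS1 (-2.11), whose partners encode a DNA helicase and a subunit of a complex of chromosome maintenance, fell. The list also holds PSMA3, PSMB8 and PSMG3, for proteasome subunits and an assembly factor, whose antisense RNAs were at -0.60, -2.58 and 1.03. CCNT2-AS1 (1.61) rose together with CCNT2 (1.23), a cyclin of the elongation factor P-TEFb and not of the cell cycle. In a list of RNA processing and translation genes that also holds the kinase gene MAPKAPK5, 7 of 12 fell and none rose (median -0.45), including PRKRA-AS1 (-1.71), and 6 of the 11 partners tested rose and 1 fell, beside 35.2% and 36.5% of all genes. For trafficking, cytoskeleton and signalling partners, 12 of 21 fell and 2 rose (median -0.68), the risers being IGFBP7-AS1 (1.12) and TGFB2-AS1 (0.87), whose call was lost in 13 of its 14 alternatives (adjusted p up to 0.151). The last list is mixed: beside mitochondrial, metabolic and transporter genes it holds AGAP2, GABPB1, LAMTOR5, ST7, TMEM147 and the partner of both DNAJC9-AS1 genes, which encode proteins of other kinds, and its median is the value of GABPB1-AS1. In it 15 of 23 fell and 2 rose (median -1.33), with SLC25A21-AS1 (-2.43) and DHRS4-AS1 (-1.70) among the falls and SLC25A25-AS1 (1.18) rising. The values in parentheses are log2 fold changes with an edgeR adjusted p under 0.05, and these examples were chosen after their values were seen.

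**Figure D5:**
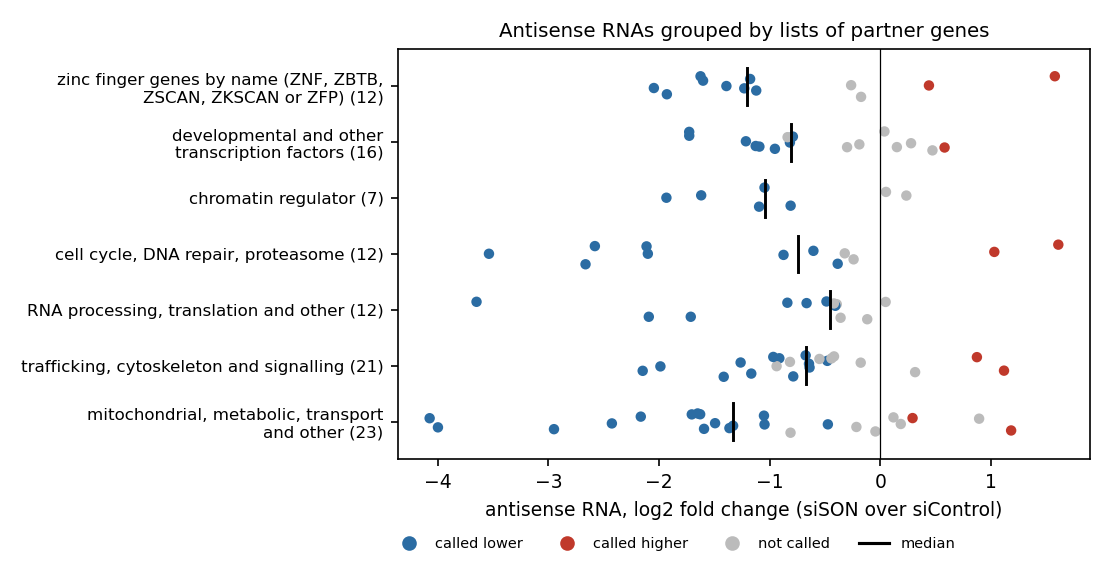
Log2 fold change (siSON over siControl) of each antisense RNA, one point per gene, grouped by lists of partner genes; blue points were called lower, red higher and grey not called, the black bars are medians, and the vertical scatter within a row has no meaning. The medians of all 7 groups lie below 0, between -1.33 and -0.45.

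Lower calls outnumbered higher calls in each arrangement of the pair with more than 1 member. Members head to head with their partner (divergent starts) and overlapping it numbered 144, with 78 lower and 15 higher, and the 34 head to head without overlap had 21 lower and 3 higher. The 69 that overlapped tail to tail had 41 lower and 5 higher, the 44 inside their partner 20 lower and 4 higher, and the 25 that spanned their partner 12 lower and 4 higher. The share of lower calls ran from 45.5% inside the partner to 61.8% head to head without overlap, around the 54.7% of all members and above the 36.5% of all genes, and no arrangement was tested against another. With starts within 1000 bases the median was -0.77 (117 members), as it was with starts farther apart (200 members). In the 17 pairs in which the antisense RNA spanned a tested partner, 15 shared a sign (r = 0.23, rho = 0.57), with 9 partners lower and 5 higher. In the 41 pairs with the antisense RNA inside the partner 46.3% shared a sign (r = -0.00708, rho = -0.03), and in the 58 that overlapped tail to tail 48.3% did (r = 0.16, rho = -0.10). The 133 overlapping head to head pairs had 54.9% of one sign (r = 0.09, rho = 0.20) and the 34 without overlap 58.8% (r = 0.14, rho = 0.12).

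By structure, the 19 members annotated with a single exon had the largest share of lower calls: 15 were lower and 1 higher, with a median of -1.49, whereas of all 1725 single-exon genes tested 420 were lower and 367 higher, with a median of -0.00278. These members included ST7-AS1, FUT8-AS1, URB1-AS1 (-2.31) and EXOC3-AS1 (-2.36), and UCKL1-AS1 was the one that rose. Members with 2 exons had 23 of 46 lower and 2 higher, beside 434 lower and 216 higher of all 1068 genes with 2 exons. Those with 3 or 4 exons had 77 of 139 lower and 15 higher, beside 887 and 590 of 2156. Those with 5 or more had 60 of 116 lower and 13 higher (median -0.53), beside 4313 and 4661 of 11642. No test of these differences was made. By abundance, 60 of the 134 members with the smallest count sums were lower and 11 higher, and of all 2052 genes in the same range of sums 766 were lower and 290 higher. Of 109 members of an intermediate sum 69 were lower and 7 higher, and of all 1809 such genes 871 were lower and 334 higher. In both ranges, which hold most members, falls thus outnumbered rises among genes at large as well. Of the 77 members with sums of at least 1000, 46 were lower and 13 higher, while of all 11327 such genes 3983 were lower and 5081 higher.

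Of the genes nearest the edge of the rule, on either side, all but PRMT5-AS1 were called lower. Lower calls made up 36.5% of all genes tested and 37.3% of those in the range of the smallest count sums above. The genes at the edge are too few to compare with these shares, and no test was made. Just inside the rule, PRMT5-AS1 had a sum of 100 (18, 13 and 25 reads in siControl and 10, 14 and 20 in siSON) and was not called. TAF1A-AS1 and SLC25A34-AS1 had 101 each and were lower. Just outside, TM4SF19-AS1, ELOA-AS1 and SPAG5-AS1 had 96 each and were all called lower. TM4SF19-AS1 had 20, 43 and 29 reads in siControl and 3, 1 and 0 in siSON. ELOA-AS1 had 26, 24 and 30 against 6, 6 and 4, and SPAG5-AS1 27, 19 and 28 against 11, 3 and 8. Since the sum spans both groups, a member may have entered through 1 group: 263 members reached 100 counts in siControl alone and 165 in siSON alone. Of these, 104 reached it in siControl and not in siSON, and 6 in siSON and not in siControl, so the members that entered only through 1 group were mostly those high in siControl, and the counts of falls above include them. No member was at 0 in any library.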

How the data were processed

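Libraries of total RNA were made with the Nugen Universal Plus mRNA-seq kit, per the labels' protocols. The deposited gene table holds raw counts per gene, made by the authors. The submitters' processing notes name cutadapt 1.16, STAR 2.5.2a, featureCounts 1.6.2, DESeq2 1.28.1 and the build hg38, without their settings, so strand and multi-mapping rules are not given in the sources used here. All 58735 gene IDs were found in GENCODE 29 (GRCh38), with 99.51% of names equal, and positions, exons and biotypes come from it.

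Counts were tested with edgeR 4.0.16 in R 4.3.3 (filterByExpr with a minimum count of 10, TMM, robust quasi-likelihood), group as the only term, and Benjamini-Hochberg adjustment over all genes tested, with a threshold of 0.05. Standard errors were derived from the size of each log2 fold change and its F statistic (size over root F). CPM use TMM-scaled library sizes. Pair ratios are log2 of antisense RNA over partner CPM with a prior of 0.5 counts, tested by an exact 2-sided permutation of 3 against 3 libraries, whose smallest p is 0.1. Nothing in the labels says that replicates were separate cultures, so p-values measure the spread between these samples, which may be technical. Intervals and the 3-count limit cover counting error only.

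Genes named in the text were SON, the 6 most abundant members, the described-role list and the genes nearest the sum of 100. Also named were the 6 largest rises and falls among members called changed whose groups did not overlap. The pairs named were the 5 strongest in the same and in opposite directions and the 4 largest partner changes beside an uncalled member. The members, lists and this rule were chosen with earlier results of these data known. Some genes that this rule or the lists hold are counted but not reported here. Alternatives were DESeq2 1.42.0, limma 3.58.1 (voom, cyclic loess), other scalings, filters and sums, a replicate block, a prior of 2, and leaving out libraries. The fits were tested on simulated data.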

Additional observations from a re-analysis of the deposited data

How the results depend on the processing

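Falls outnumbered rises among the antisense RNAs in every fit run. Antisense RNAs called higher numbered 19 with library sizes alone and 57 after cyclic loess. The median log2 fold change of the antisense RNAs was -0.97 and -0.32 in these fits. The correlation of member and partner log2 fold change is given as r. A mean count of at least 50 left 137 members called, 19 higher, 44 pairs in the same and 47 in opposite directions, r of 0.0593 and a median of -0.83. A sum of at least 500 left 97 called (15 higher, 82 lower), 86 partners (46 higher, 40 lower), 32 and 33 pairs, r of 0.034 and a median of -0.68. A sum of at least 50 gave a median of -0.72, and leaving out replicate 1 of both groups -0.71. Only pairs that share no exonic base gave 18 in the same and 19 in opposite directions. Leaving out each library in turn moved r between 0.0882 and 0.141 and the median between -0.78 and -0.69. The same omissions turned the sign of the ratio change in 5 of the pairs reported here: CCDC183-AS1 (-0.0543 to 1.94), HIF1A-AS1 (-0.128 to 0.260), NUTM2A-AS1 (-0.172 to 0.933), OIP5-AS1 (-0.180 to 0.0269) and SLC25A34-AS1 (-0.807 to 1.29). Smaller counts under stricter filters follow from fewer genes; the other causes were not tested.

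Same-numbered libraries of the groups correlated by 0.0461 to 0.194 in their deviations from the group means, and different-numbered libraries by -0.138 to 0.0286. The same-numbered values were thus all higher, though small, and the labels do not state a pairing. In the fit reported the numbers were not taken to pair the samples. With replicate number as a block, 208 members were called (36 higher, 172 lower), against 206, with 30 and 169 of the calls shared.

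Among the genes reported here, most directions that turned were those of genes not called. NR2F2 was an exception: it was called higher in the fit reported (0.22) and was at -0.12, not called, after cyclic loess. Library sizes alone turned LAMTOR5-AS1 (-0.0759), PAX8-AS1 (-0.0477), PRMT5-AS1 (-0.144) and THAP9-AS1 (-0.0716), and voom PRMT5-AS1 (-0.000572). Cyclic loess turned COX10-AS1 (0.306), HLA-F-AS1 (0.0228), MCM3AP-AS1 (0.0709), NUTM2A (0.181), PAX8-AS1 (-0.0219), SCOC-AS1 (0.102), SLC16A1-AS1 (0.0723), SNAI3-AS1 (0.211), THAP9 (0.0245) and ZEB1-AS1 (0.166). Leaving out single libraries turned COX10-AS1 (-0.171 to 0.0379), GATA6-AS1 (-0.0455 to 0.485), LAMTOR5-AS1 (-0.139 to 0.428), PRKCZ (-0.0569 to 0.490), PRMT5-AS1 (-0.263 to 0.326) and SNAI3-AS1 (-0.406 to 0.0779). The cause was not tested.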

Other observations

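Antisense RNAs with the suffixes -AS, -AS2, -AS3 and -AS4 numbered 22 with at least 100 counts, with a median log2 fold change of -0.24. In siSON 5 were higher (22.7%) and 8 lower (36.4%), beside 35.2% and 36.5% of all genes tested. No test of the difference from the -AS1 RNAs was made. Of 11 genes ending in -IT1 or -OT1, names given to sense RNAs from an intron or overlapping a gene, 2 were higher and 2 lower (18.2% each, median -0.00468). PINK1-AS, opposite the gene of the mitochondrial kinase PINK1, had 20.3 ± 0.518 CPM in siControl and 41.5 ± 1.25 in siSON (means ± SD, n = 3), a rise of 1.03 on the log2 scale (SE 0.07, edgeR adjusted p = 1.1e-07). BACE1-AS, opposite the gene of the beta-secretase that cleaves amyloid precursor protein, rose from 5.72 ± 0.0969 to 11.1 ± 0.522 CPM (log2 fold change 0.96, SE 0.09, adjusted p = 3.62e-06). MKLN1-AS rose from 2.82 ± 0.364 to 4.72 ± 0.783 CPM.

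Among those that fell, MAGI2-AS3 was the most abundant, at 37.4 ± 4.20 CPM in siControl and 24.0 ± 1.68 in siSON (log2 fold change -0.64, SE 0.09, adjusted p = 7.7e-05). LPP-AS2 fell from 4.20 ± 0.167 to 0.960 ± 0.176 CPM (log2 fold change -2.13), and HDAC2-AS2 from 1.27 ± 0.269 to 0.179 ± 0.0433 CPM (log2 fold change -2.80). BDNF-AS, opposite the gene of brain-derived neurotrophic factor, fell from 1.49 ± 0.290 to 0.586 ± 0.0659 CPM (log2 fold change -1.35, adjusted p = 0.000419). These 7 genes were chosen after their values were seen. As for the -AS1 RNAs, reads of overlapping genes cannot be told apart if strand was not used in counting.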
